A study of Homo sapiens with 9 samples.

Results

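The response of all measured genes to LBH589 was followed in MM.1S, a human line established from multiple myeloma. LBH589 is the code of panobinostat, an inhibitor of many histone deacetylases (HDACs). The arrays were chosen by their labels alone: 3 arrays of cells kept for 24 h with 5 nM LBH589 and 3 arrays of cells kept for 24 h with the solvent DMSO, 6 of the 9 arrays of the series. The other 3 arrays, of cells given 5 nM HL13 for 24 h, a compound known here only by its code, served to steady the estimate of the spread and for 1 direct comparison at the same dose and time. Every value is a log2 intensity of an Affymetrix whole-transcript array, which reads a gene through many probes along its length, so a difference of 1 is a factor of 2. The table held 22468 genes with a probe set of their own, of which 15844 passed a filter on dim probe sets and were tested. The titles number the arrays as biological replicates but tie none to a culture of its own, and a p value therefore reflects no more than the scatter among these arrays, some of which may be technical. All groups came from 1 cell line in culture without marrow cells, and in such bulk samples fewer cells expressing a gene and less RNA per cell cannot be told apart.

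HDACs take acetyl groups off the lysines of histones and other proteins, and hydroxamate inhibitors such as panobinostat occupy the zinc in their catalytic pocket. Acetylated histone tails accumulate as a result, and acetyl-lysine readers spread to new sites, so some silent genes are switched on while strongly transcribed, enhancer-driven genes are often switched off. Myeloma cells are malignant plasma cells. They depend on an identity programme set by transcription factors such as IRF4, PRDM1 and XBP1, on MYC, and on the folding and degradation machinery that heavy immunoglobulin secretion demands. Panobinostat has been used together with proteasome inhibitors in this disease.

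Treatment set the arrays apart, and 2 of the LBH589 arrays differed from each other. Over the 15844 genes, the first axis of a principal component analysis of the 6 arrays held 92.9% of the variance and put the 3 DMSO arrays on one side and the 3 LBH589 arrays on the other. The second axis held 3.66% and ran from LBH589 array 1 at -8.73 through array 2 at -0.62 to array 3 at 9.11. The root mean square difference between LBH589 arrays 1 and 3 was 0.146 log2 units, against 0.0821 to 0.0955 between DMSO arrays and 0.435 to 0.456 between a DMSO and an LBH589 array. Array 2 lay between the other 2 LBH589 arrays for 59.2% of genes. The difference between arrays 1 and 3 followed gene length and is described with its values further on. With arrays 1 and 3 left out, and array 2 alone standing for LBH589, 7799 genes were called against 8588 with all arrays. With 1 array in that arm the spread came from the DMSO and HL13 arrays alone, and the LBH589 array was assumed to vary like them.

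LBH589 changed a large share of the genes measured, mostly by small amounts. At a Benjamini-Hochberg adjusted p under 0.05 from limma, 8588 genes changed (54.2%), of which 4453 were higher (28.1%) and 4135 lower (26.1%) than in DMSO. At least 2-fold changes were seen for 683 genes (4.31%), 286 higher (1.81%) and 397 lower (2.51%). Counts of list members given below are to be read beside the 28.1% higher and 26.1% lower of all genes. The values of the 3 LBH589 and 3 DMSO arrays did not overlap for 9108 genes (57.5%). The median absolute log2 fold change over all genes was 0.15, the 90th percentile was 0.68 and the 99th percentile 1.58, beside a median standard error (SE) of 0.0427. Leaving out any 1 of the 6 DMSO and LBH589 arrays gave 8025 to 8745 called genes and 667 to 697 changed at least 2-fold.

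**Figure D1:**
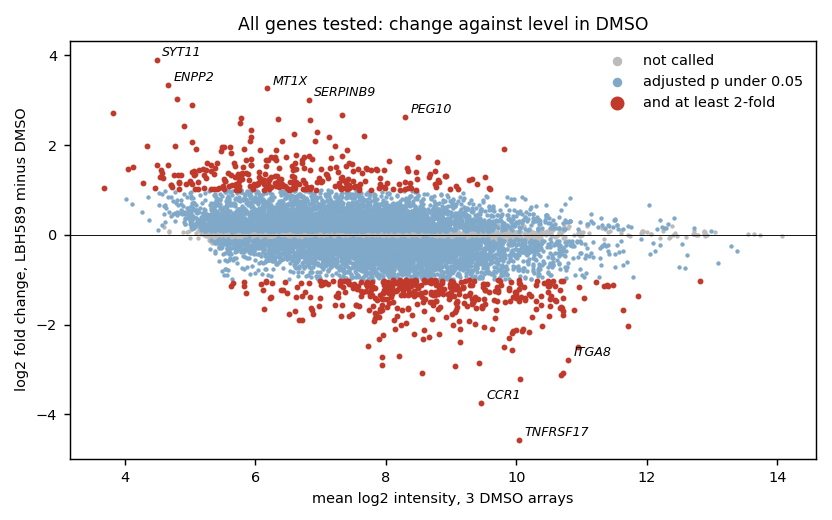
Log2 fold change of each tested gene, LBH589 minus DMSO, against its mean log2 intensity on the 3 DMSO arrays, which enter both axes. Blue points passed an adjusted p under 0.05, red points also changed at least 2-fold, and grey points were not called. The 286 red points above 0 lie mostly at low DMSO intensity and the 397 below 0 mostly at high intensity.

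Falls were most frequent among bright probe sets, while rises of any size were spread over the intensity range. Among the quintile of genes with the highest DMSO intensity, 49.9% fell and 25.8% rose, and at least 2-fold falls made up 7.13% against 0.789% for rises. In the lowest quintile 27.1% rose and 5.9% fell, and at least 2-fold rises made up 3.35% against 0.158% for falls. Intensities of different probe sets are not levels of transcript that can be set against each other, and the DMSO arrays enter both the ranking and the change. Of the genes tested, 253 lay at or below the array median on every DMSO array and 150 on every LBH589 array. Such a level is called low below, and folds against it may be understated because no background values came with the intensities. Only 9 genes passed the filter through the LBH589 arrays alone and 59 through the DMSO arrays alone. Protein-coding genes were called higher in 30% and lower in 28.5% of 13199, long non-coding RNA genes in 17.5% and 12.2% of 754.

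The largest change of all genes tested was the fall of TNFRSF17, which encodes BCMA, the receptor through which plasma cells take up survival signals from APRIL and BAFF. Its log2 intensity was 10.03, 10.10 and 10.03 on the 3 DMSO arrays and 5.48, 5.41 and 5.58 on the 3 LBH589 arrays. The groups lay far apart, with the LBH589 arrays only just above the middle of the array. The log2 fold change was -4.56 ± 0.0436 (SE, n = 3 arrays per group), a 23.6-fold lower intensity (limma adjusted p 2.82e-12). CCR1, a receptor for inflammatory chemokines, followed with 9.44, 9.52 and 9.43 in DMSO and 5.73, 5.65 and 5.77 with LBH589. It changed by -3.74 ± 0.0475 (adjusted p 1.04e-11), again without overlap.

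The remaining 10 of the 12 largest falls joined enzymes, adhesion molecules and signalling genes. UGT2B17, a glucuronosyltransferase of steroid clearance, stood at 10.09, 10.08 and 10.01 in DMSO and at 6.76, 6.81 and 6.99 with LBH589 (log2 fold change -3.21). Its near-identical paralog UGT2B15 changed by -2.31, and probes that read both genes were not told apart. The zinc finger gene ZBTB38, whose protein binds methylated DNA, changed by -3.11, the synaptonemal complex gene SYCP3 by -3.07 and the acyl-CoA synthetase gene ACSL5 by -2.93. BEST3, of the bestrophin family of chloride channels, changed by -2.91 and the integrin alpha subunit ITGA8 by -2.78. AGMAT and GAS2 both changed by -2.71, DEPTOR, an inhibitory partner of mTOR that is high in many myelomas, by -2.58, and FCMR, the receptor for IgM, by -2.51. BEST3 and AGMAT were low on every LBH589 array. The adjusted p of these 12 genes was 2.09e-10 or smaller.

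The largest rise was that of SYT11, a synaptotagmin of vesicle traffic. It was low on all DMSO arrays, at 4.52, 4.41 and 4.54, and 8.39 on each of the 3 LBH589 arrays. The log2 fold change was 3.90 ± 0.0382 (adjusted p 2.82e-12). The 3 LBH589 values were identical to the last digit given, as they were for 118 genes (0.745%) with LBH589 and 255 genes (1.61%) in DMSO, so the spread of such genes is understated. PEG10, a gene of retrotransposon origin expressed from the paternal allele, was another of them, at 8.31, 8.32 and 8.27 in DMSO and 10.93 on each LBH589 array (log2 fold change 2.63).

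ENPP2, which encodes autotaxin, the enzyme that makes lysophosphatidic acid, stood at 4.64, 4.53 and 4.81 in DMSO and at 7.92, 8.06 and 8.04 with LBH589. It changed by 3.34 ± 0.0702, and its relative ENPP5 by 2.90 ± 0.0577. SERPINB9, the inhibitor that shields cells from granzyme B, stood at 6.78, 7.04 and 6.64 in DMSO and at 9.76, 9.84 and 9.89 with LBH589 (log2 fold change 3.01 ± 0.0862). The groups did not overlap for any of these genes. CCDC88A, an actin-binding regulator of G proteins, changed by 3.04, SGTB, a cochaperone, by 2.61, the membrane scaffold gene STOM by 2.57 and the neuronal serpin gene SERPINI1 by 2.56. LRRIQ1, a gene of little known function, stood at 3.86, 3.76 and 3.84 in DMSO and at 6.33, 6.50 and 6.76 with LBH589 (2.71 ± 0.0875). ENPP2, ENPP5, CCDC88A and LRRIQ1 were low on every DMSO array. The adjusted p of the 12 rises was 2.11e-09 or smaller.

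**Figure D2:**
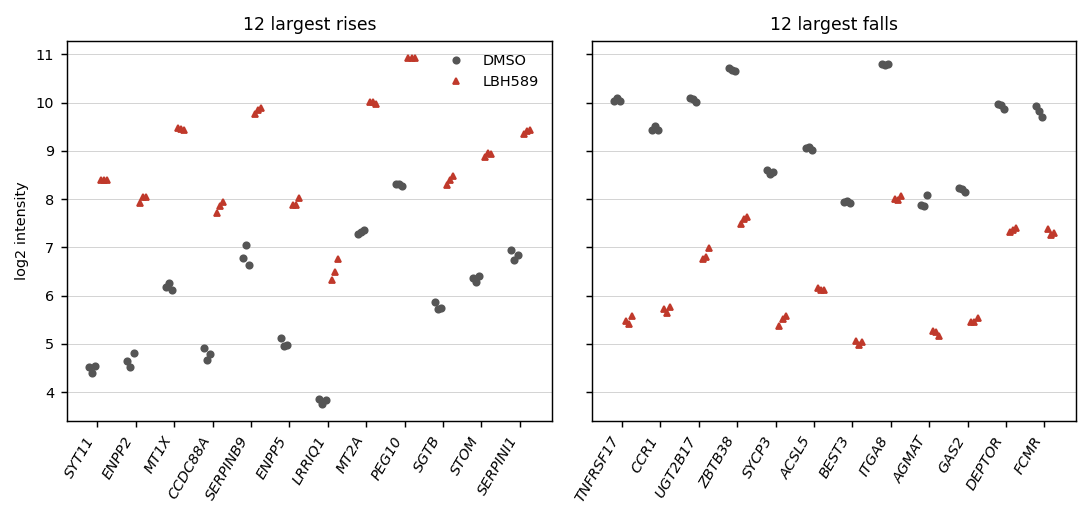
Log2 intensity on each array for the 12 largest rises (left) and the 12 largest falls (right). Each point is 1 array, grey circles are the 3 DMSO arrays and red triangles the 3 LBH589 arrays. In no gene do the groups overlap, and the distance runs from 2.51 for FCMR to 4.56 for TNFRSF17.

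The metallothioneins MT1X and MT2A, small cysteine-rich proteins that bind zinc and copper, were among the 12 largest rises. MT1X went from 6.18, 6.26 and 6.12 to 9.47, 9.45 and 9.43 (log2 fold change 3.26 ± 0.0392), and MT2A from 7.28, 7.33 and 7.37 to 10.02, 10.01 and 9.98 (2.68 ± 0.0401). The 3 LBH589 arrays agreed closely for both. The 250 bases before their starts are shown because the motif bound by the metal-sensing factor MTF1, with the core TGCNCNC, recurs there. The sequences are from RefSeq, build GRCh38.p14, given 5′ to 3′ on the strand of the gene, and capitals mark each match to TGCNCNC on either strand. MT1X (chr16:56682220-56682469, plus strand) held 4 matches, 1 of them overlapping a GC box, and MT2A (chr16:56608334-56608583, plus strand) held 7.
MT1X: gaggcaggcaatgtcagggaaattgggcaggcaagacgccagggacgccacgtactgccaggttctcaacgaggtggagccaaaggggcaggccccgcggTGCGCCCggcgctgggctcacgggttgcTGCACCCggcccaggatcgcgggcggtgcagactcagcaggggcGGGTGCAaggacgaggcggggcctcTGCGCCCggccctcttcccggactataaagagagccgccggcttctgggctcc
MT2A: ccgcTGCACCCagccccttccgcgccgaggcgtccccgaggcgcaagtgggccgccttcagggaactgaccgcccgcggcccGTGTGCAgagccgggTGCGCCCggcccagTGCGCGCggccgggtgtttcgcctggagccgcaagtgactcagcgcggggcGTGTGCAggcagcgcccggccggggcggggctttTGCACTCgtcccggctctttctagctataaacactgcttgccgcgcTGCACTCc
At least 1 match was found in 48.4% of the 27305 promoters of the table, at least 4 in 1.7% and at least 7 in 0.0952%. A match is a run of letters and not a shown binding site.

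Of 11 tested genes of the metallothionein and zinc-handling list, 8 rose and none fell, with a median log2 fold change of 0.49 beside 0.01 for all genes. MT1F (1.50), MT1G (1.23), MT1H (0.68), MT1E (0.36) and MT1M (0.32) rose besides MT1X and MT2A, as did MTF1 itself (0.49). The values of the brain form MT3 (0.12), of MT4 (0.18) and of the zinc exporter gene SLC30A1 (-0.04) did not pass the test. Metallothionein genes are close copies of each other, so signal may be shared between their probe sets. MT1M lost its call without DMSO array 1, 2 or either of LBH589 arrays 1 and 2. MT1A and MT1B were not tested.

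The promoters of the largest rises tended to hold more CpG dinucleotides than those of the largest falls, with overlap. Of the 12 largest rises 9 had a promoter in the table. They held from 9 (SERPINI1) to 36 (SGTB) CpG dinucleotides in 250 bases, with a median of 22. Of the 12 largest falls 8 had a promoter, with 2, 1, 19, 3, 19, 10, 3 and 4. The GC box GGGCGG, on either strand, was in 7 of the 9 and in 2 of the 8. One promoter from near each end of these counts, not a typical one, is given with its CpG dinucleotides in capitals, on the strand of the gene. SGTB (chr5:65722110-65722359, minus strand) held 36 and CCR1 (chr3:46208314-46208563, minus strand) held 2, and at most 2 were found in 23.6% of all promoters and at least 36 in 4.73%.
SGTB: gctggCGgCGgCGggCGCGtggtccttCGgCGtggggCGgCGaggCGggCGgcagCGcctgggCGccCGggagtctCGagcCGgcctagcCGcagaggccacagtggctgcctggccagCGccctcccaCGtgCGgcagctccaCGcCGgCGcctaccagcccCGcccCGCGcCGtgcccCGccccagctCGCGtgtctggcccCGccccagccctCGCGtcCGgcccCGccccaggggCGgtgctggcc
CCR1: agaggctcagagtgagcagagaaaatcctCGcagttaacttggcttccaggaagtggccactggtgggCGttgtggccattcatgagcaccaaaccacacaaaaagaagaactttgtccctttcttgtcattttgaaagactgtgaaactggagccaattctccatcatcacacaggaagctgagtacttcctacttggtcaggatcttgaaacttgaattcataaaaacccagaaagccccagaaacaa
Over all protein-coding genes changed at least 2-fold the median was 19 CpG dinucleotides for rises and 19 for falls, so the difference was not seen beyond the genes with the largest changes. The GC box was present in 72.3% of 235 promoters of protein-coding rises, in 59.2% of 287 promoters of falls, in 65.8% of 10766 promoters of all protein-coding genes tested and in 42.3% of all promoters. The CCAAT box, letters CCAAT on either strand, was in 45.5% of promoters of rises, 34.5% of falls, 34.6% of all tested and 33% of all promoters. These shares are descriptions without a test.

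The plasma cell programme was turned down as a group, with a few members going the other way. Of 35 tested genes of plasma cell identity, 25 fell and 7 rose (71.4% and 20%, beside 26.1% and 28.1% of all genes), 14 of the falls were at least 2-fold, and the median log2 fold change was -0.68. After TNFRSF17 came SLAMF7, the receptor targeted by elotuzumab, at 10.99, 10.96 and 10.91 in DMSO and 8.41, 8.43 and 8.56 with LBH589 (-2.49). POU2AF1, the coactivator of octamer-binding factors, changed by -2.19, the costimulatory receptor gene CD28 by -1.83 and SDC1, which encodes the plasma cell marker CD138, by -1.44. Of the factors that set the programme, XBP1 changed by -1.70, PRDM1 by -1.45 and IRF4 by -0.48. The immunoglobulin J chain gene JCHAIN changed by only -0.21. NCAM1, the adhesion molecule CD56 found on many myelomas, rose from 6.94 ± 0.036 (SD, n = 3) to 9.23 ± 0.016, and CD38 rose by 0.65. On the 3 LBH589 arrays the list medians were -0.64, -0.69 and -0.71 from DMSO.

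A set of 6 survival genes was taken from the study, which reports on these same cells, so the choice of genes is not independent. For these factors the study reported lower protein with another HDAC inhibitor, purinostat mesylate. It saw no obvious effect of panobinostat on genes of survival. The values here are RNA with LBH589, which is not a like comparison. Of the 6 genes, 5 fell and 1 rose. IKZF1 and IKZF3, the lymphoid zinc finger factors that lenalidomide degrades, changed by -1.68 and -1.41. MYC stood at 10.05, 10.08 and 10.03 in DMSO and at 8.61, 8.56 and 8.56 with LBH589, a change of -1.48 ± 0.0312 (adjusted p 1.59e-10). CDK6, a kinase of the G1 phase, changed by -0.70, IRF4 by -0.48, and EZH2, the histone H3 lysine 27 methyltransferase, rose by 0.19.

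MM.1S carries a translocation that drives MAF, and MAF itself changed by -1.45. Of 15 tested genes of this list 8 fell, 6 at least 2-fold, and 5 rose, with a median of -0.63. The median rested on the filter, with -0.06 for all measured members and -1.10 under a stricter filter. Besides CCR1, ITGA8 and DEPTOR, CCND2, the D-type cyclin of MAF-driven myeloma, went from 11.78, 11.73 and 11.65 to 9.70, 9.67 and 9.70 (-2.03 ± 0.0360). The kinase gene NUAK1 changed by -1.67 and the integrin ITGB7 by -0.63. The list also holds DKK1 (0.56) and SPP1 (0.92, low on every DMSO array), secreted factors of bone, which rose.

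Genes for surface proteins that antibodies and cell therapies aim at in myeloma fell more often than they rose, with 15 lower and 5 higher of 25 and a median of -0.52. IL6R, which carries the growth signal of interleukin 6, changed by -2.13, CD48 by -1.37, the hyaluronan receptor gene CD44 by -1.36 and GPRC5D by -1.13. TNFRSF17 and SLAMF7 belong to this list too. CD38, NCAM1, CD200 (0.46) and CD40 (0.88) were among those that rose.

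Among 28 tested genes known to rise with HDAC inhibitors, 18 rose and 5 fell, 8 of the rises were at least 2-fold, and the median was 0.37. A further 4 of the 32 measured stayed below the filter. SYT11, low in DMSO, passed it only through arrays of treated cells, so these shares may lean to rises. The list, like the others, was drawn up with earlier results of these data known and holds several of the largest rises, so its direction is not independent evidence. TXNIP, the inhibitor of thioredoxin, went from 9.80, 9.79 and 9.85 to 11.73, 11.70 and 11.77 (1.92), SAT1, which acetylates polyamines for export, changed by 2.18, and the dehydrogenase gene DHRS2 by 1.37. CDKN1A, the p21 inhibitor of cyclin-dependent kinases and a standard marker of this drug class, rose by 0.39. ADM (-0.83), H2BC12 (-0.61), KLF6 (-0.42), CRIP1 (-0.28) and TXN (-0.17) fell.

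Of the drug's own targets, HDAC3, the catalytic subunit of the NCoR and SMRT corepressors, moved most. It was 7.98, 7.93 and 8.03 in DMSO and 9.04, 9.03 and 9.04 with LBH589, a rise of 1.06 ± 0.0340. HDAC1 rose by 0.23, and the class IIa genes HDAC7 and HDAC9 changed by -0.39 and -0.25. HDAC2 (0.04), HDAC6 (0.01) and HDAC8 (0.06) did not pass the test. Of 17 tested HDAC and sirtuin genes, 7 rose and 5 fell, shares of 41.2% and 29.4% beside 28.1% and 26.1% of all genes. The enzymes that add acetyl groups and the proteins that read them went mostly down, with 14 of 20 lower, 4 higher and a median of -0.35. KAT2B (-0.94), KAT2A (-0.90) and CREBBP (-0.92), which encode acetyltransferases, fell in this list, as did the nuclear receptor coactivator gene NCOA2 (-0.84).

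Of 15 tested histone genes 9 rose and 3 fell (60% and 20%). Another 2 measured genes stayed below the filter, which H1-1 passed only through arrays of treated cells. H1-1 (1.45, low on every DMSO array), H2BC21 (1.35) and H1-10 (1.21) rose at least 2-fold and H2AX by 0.69. Histone genes are near-identical copies, so signal may be shared between their probe sets. Genes of the PRC2 complex and of H3K27 and H3K36 methylation went both ways, with 6 higher and 7 lower of 16 (37.5% and 43.8%). PHF19 changed by -1.08, NSD1 by -0.85 and NSD2 by -0.66, while MTF2 rose by 0.56.

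Genes of growth and division fell broadly. Of 42 tested MYC targets and ribosome biogenesis genes 38 fell (90.5%) and 3 rose, 9 of the falls were at least 2-fold, and the medians on the 3 arrays were -0.62, -0.61 and -0.62. UTP20, of the small-subunit processome, changed by -1.93, SRM, which makes spermidine, by -1.47, RRS1 by -1.43 and the transferrin receptor gene TFRC by -1.38. Of 49 DNA replication and E2F target genes 37 fell and 5 rose, with a median of -0.32. E2F2 changed by -2.01, the thymidylate synthase gene TYMS by -1.61, E2F8 by -1.45 and TIMELESS by -1.21.

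Of 63 genes of mitosis and the G2/M transition 45 fell and 7 rose (median -0.31). FOXM1, the transcription factor of the late cell cycle, changed by -1.55, the proliferation marker MKI67 by -1.12, UBE2C by -1.07 and PLK1 by -1.04. In this list the median was -0.42 on LBH589 array 1 and -0.27 on array 3. Among cyclins, cyclin-dependent kinases and their inhibitors 8 rose and 7 fell of 21 (38.1% and 33.3%). CCND2 was the largest fall, CDKN1B, the p27 inhibitor, went from 9.31, 9.39 and 9.43 to 7.78, 7.74 and 7.75 (-1.62), CCNA2 changed by -0.96 and CDK4 by -0.86.

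The machinery of RNA processing fell with them. Of 40 snRNP, SR and hnRNP splicing factor genes 31 fell and 2 rose, with a median of -0.45. U2AF2, which recognises the polypyrimidine tract, changed by -1.66, SRSF6 by -1.09, HNRNPL by -1.03 and SRSF1 by -0.95. Cytosolic ribosomal protein genes hardly moved, with 11 lower and 2 higher of 32 and a median of -0.07. Of these RPL30 (-0.32), RPL14 (-0.21) and RPL6 (-0.17) changed most. DNA repair genes went both ways, 21 lower and 15 higher of 50 (42% and 30%). NBN changed by -1.19, LIG3 by -0.79, MSH3 by -0.74 and POLB by 0.95.

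**Figure D3:**
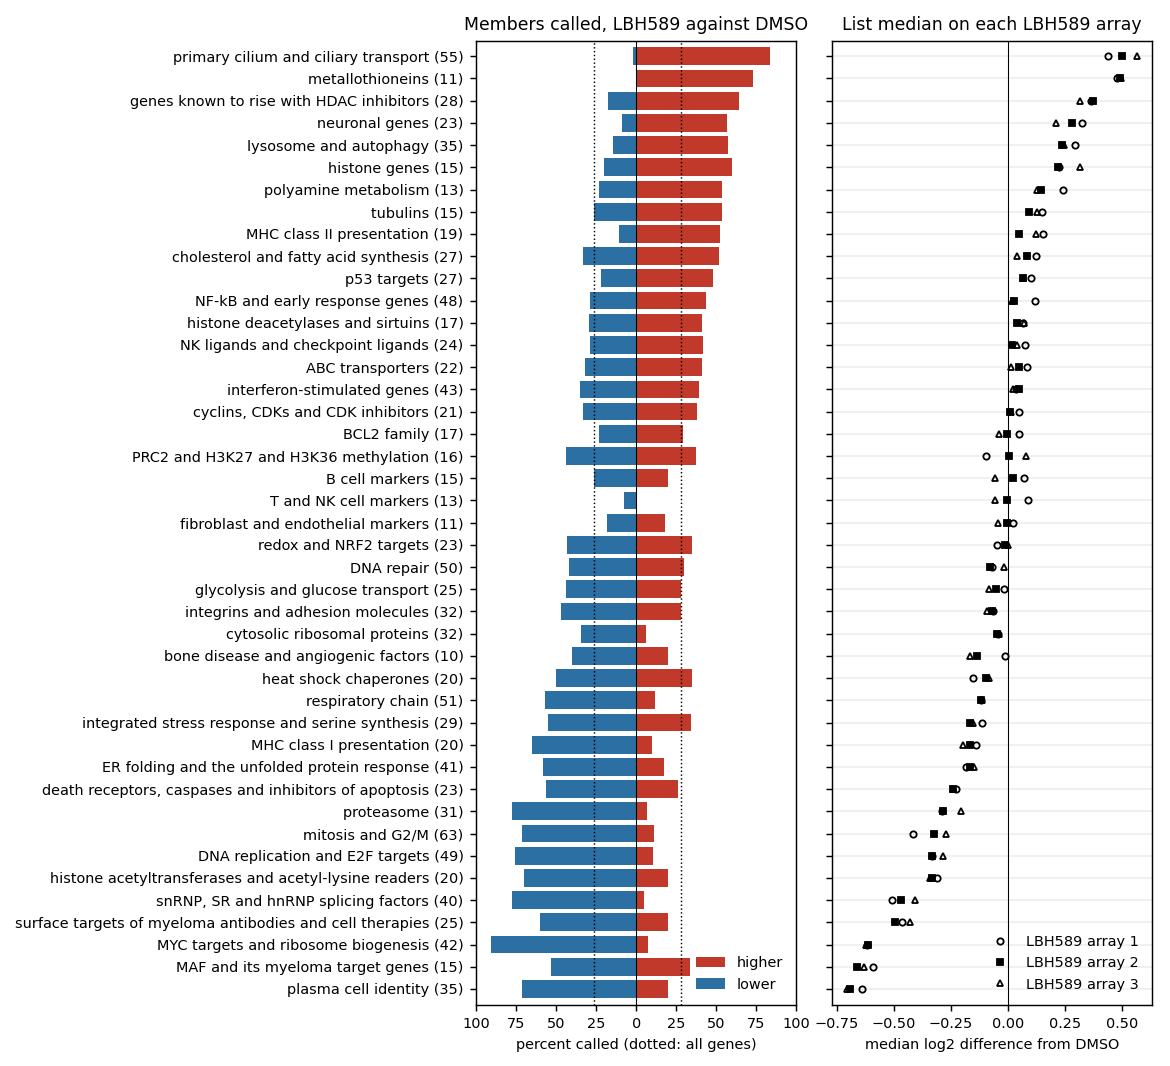
Left, percent of the tested members of each gene list called higher (red) or lower (blue) with LBH589, with the number tested in brackets and dotted lines at the 28.1% and 26.1% of all genes. Right, the median log2 difference of each list from the DMSO mean on LBH589 arrays 1, 2 and 3 (circles, squares, triangles). By the median log2 fold change over the 3 arrays the cilium list stands highest, at 0.50, and the plasma cell list lowest, at -0.68. Lists with fewer than 10 tested members are not drawn.

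Protein homeostasis genes, on which secretory cells lean, were lowered more often than raised. Of 31 proteasome genes 24 fell and 2 rose, with a median of -0.27. PSMB5, the subunit that bortezomib binds, went from 7.04, 7.07 and 7.10 to 6.10, 6.04 and 5.93 (-1.05), PSMA3 changed by -1.02, PSMB6 by -0.99 and PSMC3 by -0.88. Of 41 genes of folding in the endoplasmic reticulum and the unfolded protein response 24 fell and 7 rose (median -0.18). SPCS2, of the signal peptidase, changed by -1.28 and EDEM1 by -0.83, next to XBP1, and ERO1B, an oxidase of the pancreas and other secretory cells, rose by 1.36. Heat shock genes were split, 10 lower and 7 higher of 20 (50% and 35%), with HSPH1 at -1.02 and HSPA1A at 0.56.

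Genes of the integrated stress response and of amino acid supply were lower in 16 and higher in 10 of 29 (55.2% and 34.5%). The amino acid transporter genes SLC7A5 (-1.52) and SLC1A5 (-1.42) fell while ATF3 rose by 0.75. Lysosome and autophagy genes went up, with 20 of 35 higher, 5 lower and a median of 0.26. GABARAPL1, an autophagosome protein of the ATG8 family, rose by 1.12, the sialidase gene NEU1 by 1.11, the lysosomal calcium channel gene MCOLN1 by 0.97 and LAMP2 by 0.93.

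In metabolism, respiratory chain genes were lower in 29 and higher in 6 of 51, with a median of -0.12. NDUFV2 changed by -1.23 and CYC1 by -0.93. Glycolysis genes were lower in 11 and higher in 7 of 25 (44% and 28%). PDK1 changed by -1.03 and HK2 by -0.67, while HK1 rose by 0.93 and ALDOC by 1.01. Of 27 sterol and fatty acid genes 14 rose and 9 fell (51.9% and 33.3%). The fatty acid synthase gene FASN (-0.92) and ACACA (-0.65) fell and INSIG1 rose by 0.66. SAT1 and SRM, which break down and build polyamines, went opposite ways. Of 23 redox genes 8 rose and 10 fell (34.8% and 43.5%). Among the falls were the NRF2 inhibitor gene KEAP1 at -1.08 and the NRF2 target NQO1 at -0.93.

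Single genes of the apoptosis machinery had large changes. APAF1, the scaffold of the apoptosome, went from 5.80, 5.74 and 5.76 to 8.11, 8.26 and 8.37, a rise of 2.48 ± 0.0620 (adjusted p 4.29e-10). Its groups lay well apart. Of 17 BCL2 family genes 5 rose (29.4%) and 4 fell (23.5%), near the 28.1% and 26.1% of all genes, so the list as a whole did not stand out. Among the guardians of mitochondria, BCL2L1 changed by -1.51, BCL2 by -1.09 and MCL1 by 0.44. Of the killers BID changed by -1.35 and BAK1 by -0.34, while BCL2L11 (0.65), PMAIP1 (0.65), BMF (0.50) and the mitophagy receptor gene BNIP3L (1.64) rose. Of 23 death receptor, caspase and inhibitor genes 13 fell and 6 rose, with the caspase inhibitor genes XIAP at -0.90 and BIRC5 at -0.73. Among p53 targets 13 of 27 rose and 6 fell (48.1% and 22.2%), with ZMAT3 at 1.25 and AEN at -1.22.

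Immune genes went both ways. Of 43 tested interferon-stimulated genes 17 rose and 15 fell (39.5% and 34.9%), with a median of 0.03. A further 7 of the 50 measured stayed below the filter. IFI6 (1.49) and TLR3 (1.47) rose and OAS2 changed by -1.29. IRGM, also counted in this list, rose by 1.97, and whether interferon drives it was not tested. IRGM and TLR3 were low on every DMSO array, so they passed the filter only through arrays of treated cells. A list of 11 interferon and chemokine genes was taken from the study, so the choice of genes is not independent. The study reported them higher in xenograft tumours given purinostat mesylate, with minimal effects of panobinostat. In MM.1S cells given panobinostat its RT-PCR showed no significant increase of TLR3 or MX1, a measure unlike the arrays. Only 6 of the 11 genes passed the filter, of which 2 rose and 1 fell. These were TLR3, RSAD2 (0.48, low on every array of both groups) and CXCL10 (-0.52). MX1 (-0.09), CCL25 (0.06) and IFI27 (0.01) did not pass the test.

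Genes of MHC class II presentation were higher in 10 and lower in 2 of 19, with HLA-DMB at 0.80 and the protease gene LGMN at 0.87. MHC class I genes were lower in 13 and higher in 2 of 20, with TAPBPL at -0.85 and PSME2 at -0.77. Of 48 NF-kB and early response genes 21 rose and 14 fell (43.8% and 29.2%). The largest changes were those of IER3 (1.45), REL (1.23), PTGS2 (1.16) and ZFP36 (1.05). PTGS2 was low on every DMSO array and above the array median on only 2 LBH589 arrays. Among ligands of natural killer cells and checkpoint ligands 10 of 24 rose and 7 fell (41.7% and 29.2%). CD86 changed by -1.75 to a low level, CD48 by -1.37 and CD58 by -1.19. The largest rise in the list was that of SERPINB9, which is counted there though it is a granzyme B inhibitor and not a ligand.

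Some genes known from neurons rose, 13 of the 34 measured, and 2 fell. The other members included 11 that stayed below the filter, and over all 34 the median log2 fold change was 0.03, beside 0.29 over the 23 tested. A member low in DMSO, such as SYT11, passed the filter only through arrays of treated cells, so nothing is read from the latter value. MAP2, which binds microtubules in dendrites, went from 5.45, 5.51 and 5.51 to 7.38, 7.47 and 7.49 (1.96), next to SYT11, SERPINI1, NCAM1 and CNTN1 (1.24). Tubulin genes parted by isoform: TUBB2B (1.67) and TUBB2A (0.85) rose, and the abundant TUBA1B (-0.73) and TUBB (-0.72) fell. These genes are near-identical in their coding parts.

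Genes of the primary cilium, the antenna-like organelle that most blood cells lack, and of the intraflagellar transport that builds it were mostly higher. This list was chosen after values had been seen, so its counts are a description. Of its 60 genes 57 were measured and 55 tested. Of these 46 were higher (83.6%) and 1 was lower, 10 rose at least 2-fold, and the median log2 fold change was 0.50. DYNC2H1, the heavy chain of the dynein that carries cargo back from the tip, stood at 4.87, 4.69 and 4.77 in DMSO and at 6.54, 6.75 and 6.97 with LBH589. Its change was 1.98 ± 0.0905, from a low level. WDR19, of the retrograde IFT-A complex, went from 7.24, 7.13 and 7.12 to 8.83, 8.85 and 8.97 (1.72 ± 0.0476).

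ARL6 (1.82), BBS9 (1.55) and BBS7 (1.53), whose loss causes Bardet-Biedl syndrome, rose, as did the anterograde motor gene KIF3A (1.47) and IFT80 (1.37). DYNC2I2 was the member that fell, by 0.28. The median gene length of the list was 55.9 kb against 20.9 kb for all genes, and its median shift was 0.44, 0.50 and 0.57 on LBH589 arrays 1, 2 and 3. These values order in the way the arrays do for long genes, and their part in the result was not tested beyond the values of each array, all of which lay above the 0.05, 0.01 and -0.02 of all genes.

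**Figure D4:**
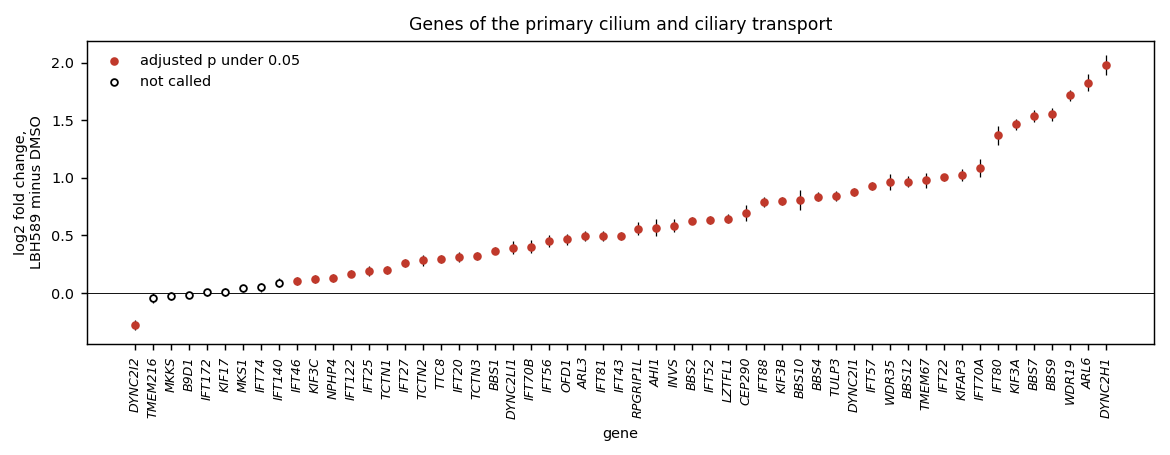
Log2 fold change, LBH589 minus DMSO, of the 55 tested genes of the primary cilium and ciliary transport, in rising order. Points are means of 3 arrays against 3, bars are 1 SE, filled red points passed an adjusted p under 0.05 and open points did not. The single filled point below 0 is DYNC2I2 at -0.28, and the highest is DYNC2H1 at 1.98.

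Cell surface and drug-handling genes added single large changes. Of 32 integrin and adhesion genes 15 fell and 9 rose (46.9% and 28.1%). At least 2-fold were 8 of the falls, among them SELPLG, the selectin ligand of leukocytes, at -2.17. ABCB1, the drug efflux pump that exports many anticancer agents, rose by 1.12 from a low level, with DMSO arrays at 4.76, 4.70 and 4.67 and LBH589 arrays at 5.78, 5.80 and 5.89. Of 22 ABC transporter genes 9 rose and 7 fell (40.9% and 31.8%).

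Markers of plasma cells and of other lineages were set beside the share of all genes called, 54.2%. On the DMSO arrays JCHAIN lay at 12.53 to 12.56 and IRF4 at 11.09 to 11.17. MS4A1, a defining gene of B cells, did not pass the filter, and of 15 tested B cell genes 3 rose (20%) and 4 fell (26.7%), near the 28.1% and 26.1% of all genes. BCL6, the repressor of the germinal centre, rose by 1.61 and BLNK changed by -1.65. Of 13 tested T and NK cell markers 1 changed (TRAT1, -1.90, to a low level), of 7 monocyte markers 1 (CD68, -0.57), of 11 fibroblast and endothelial markers 4 (VIM at -0.80 and FN1 at 0.63 among them) and of 4 erythroid markers 1 (HBB, -0.52). The summed linear intensity of the T and NK list was 946 to 958 on DMSO arrays and 849 to 925 on LBH589 arrays, and that of the plasma cell list 41744 to 43032 and 25691 to 26456.

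LBH589 and HL13 were compared directly at the same dose and time, with no claim about structure, since HL13 is known only by its code. Of 15844 genes 5173 differed (32.6%), 2683 of them higher with LBH589 (16.9%) and 2490 lower (15.7%), but only 45 by at least 2-fold (0.284%). Both compounds share the DMSO arrays, so their changes from DMSO are given side by side. Of the 45 genes 39 were lower with LBH589 and 6 higher. PTGS2, the inducible cyclooxygenase, changed by 1.16 with LBH589 and differed from HL13 by -1.84, with HL13 the higher, SAT1 changed by 2.18 with LBH589 and 3.80 with HL13 (difference -1.62), TLR3 by 1.47 and 3.11 (-1.64) and IRGM by 1.97 and 3.75 (-1.78). The phospholipase gene LIPH had the widest gap on this side (-1.86).

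The widest gap on the other side was that of LRRIQ1, which changed by 2.71 with LBH589 and 0.77 with HL13 (difference 1.93 ± 0.0875). The others were UTP15 (1.19), ANKRD42 (1.15), HSPH1 (1.07), the ciliary gene LZTFL1 (1.07) and LSG1, just past 2-fold. Of these LZTFL1 rose by 0.64 with LBH589 and changed by -0.42 with HL13. For TNFRSF17 the difference between the compounds was -0.07 ± 0.0436 (SE), which did not pass the test (adjusted p 0.272). Of the 42 MYC and ribosome biogenesis genes 34 were higher with LBH589 than with HL13 and 3 lower, and the list medians from DMSO were -0.59 and -0.91. Of 43 interferon-stimulated genes 30 were lower with LBH589, with medians of 0.03 and 0.31, and of 19 MHC class II genes 16, with medians of 0.11 and 0.51. Of the cilium genes 28 of 55 were higher with LBH589 and 6 lower.

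Gene length ran through both the arrays and the response. Genes were divided into deciles by length in RefSeq, which was known for 15665 of them. In the second decile, of 1.45 to 4.58 kb, LBH589 array 1 lay 0.0501 above the mean of its group at the median and array 3 lay at -0.0434 from it. In the ninth decile, of 71 to 129 kb, array 1 lay at -0.0305 and array 3 at 0.0352. Array 2 stayed within 0.0077 of the group mean from the second decile on. Accordingly, 20.1% of genes were higher on array 3 than on array 1 in the second decile and 66.5% in the ninth. Across genes, which are not independent replicates, the Spearman rank correlation of length with the difference of array 3 from array 1 was 0.352. DMSO arrays ran with length too, though less. Correlations of length with the deviation from the group mean were 0.227, -0.137 and -0.130 on DMSO arrays 1, 2 and 3. On LBH589 arrays 1, 2 and 3 they were -0.337, -0.0472 and 0.349.

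The response was larger for long genes. At least 2-fold rises made up 0.51% of the shortest decile and 4.85% of the longest, and at least 2-fold falls 1.53% of the shortest, 4.02% of the ninth and 3.58% of the longest. Calls of any size went from 13.7% higher and 12.9% lower in the shortest decile to 42.2% and 29.4% in the longest. The median length was 0.119 kb in the shortest decile and 206 kb in the longest. In the second decile at least 2-fold rises made up 1.02% and falls 1.53%. MicroRNA genes, with a median length of 0.082 kb, were called higher in 9.07% and lower in 7.44% of 430. Genes in the quintile of highest DMSO intensity had a median length of 29.3 kb, against 20.9 kb for all genes. Length was therefore mixed with gene type and intensity, and these shares were not split by either. The part of length itself was not tested. The rank correlation of length with the mean difference between LBH589 and DMSO was 0.0577. With the trend along length removed from each array, 8626 of 15665 genes were called and 672 changed at least 2-fold. The balance turned, from 4453 higher and 4135 lower to 4192 higher and 4434 lower.

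**Figure D5:**
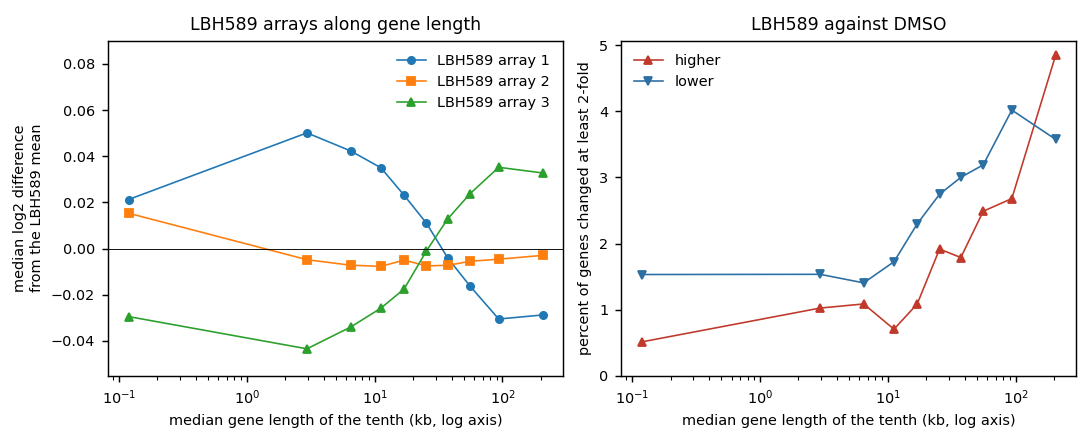
Left, median log2 difference of LBH589 arrays 1, 2 and 3 from the mean of the 3, in deciles of genes by length, plotted at the median length of each decile in kb on a log axis. Right, percent of genes in each decile changed at least 2-fold, higher (red) or lower (blue) with LBH589. Arrays 1 and 3 cross between 25.4 and 37.3 kb, and the share of rises is highest, at 4.85%, in the longest decile.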

How the data were processed

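RNA of MM.1S cells was labelled with biotin and hybridised to Affymetrix whole-transcript arrays, per the labels, although the study's methods describe RNA sequencing. The authors deposited 1 table of log2 intensities for 9 arrays, of which the summarisation and normalization are not given in the sources used here. Array medians lay between 5.325 and 5.377, so arrays had been scaled to each other, and a shift common to the majority of genes would not be seen. No detection or background values were used, and precision is limited by how few arrays there are. The median 95% interval of a log2 fold change was ± 0.0954.

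Probe sets were named through the platform annotation. Of 70523, 23784 had 1 gene symbol, 1540 several and 45199 none. Those with 1 symbol gave 22468 genes, each kept at its brightest probe set, and 15844 had a value above the array median on at least 3 of 9 arrays. The groups were fitted over all 9 arrays by linear models with moderated variances (limma 3.58.1, R 4.3.3), with Benjamini-Hochberg adjustment over the 15844 genes, an adjusted p under 0.05, and a log2 fold change of at least 1 for 2-fold calls. The fit was tested on simulated data. The lists and their members were chosen with earlier results of these data known, and the cilium list after its values were seen. The genes named were the 12 largest rises and 12 largest falls without overlap, up to 4 members of a list with the largest change, and all members of 2 lists named in the study, and other genes named were chosen after their values were seen. Lengths and promoters came from RefSeq, build GRCh38.p14. Python 3.11.15 with pandas 2.3.3 and SciPy 1.17.1 was used for the rest. Alternatives covered the filter, the scaling, the arrays fitted, array weights, a replicate block, the removal of the length trend, the probe set per gene and leaving out each of the 6 DMSO and LBH589 arrays.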

Additional observations from a re-analysis of the deposited data

Results flagged for a closer look

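Signal lay in probe sets outside the comparison of genes. Of the probe sets that carry no single gene symbol and passed the same filter, 569 changed at least 2-fold with LBH589, 231 higher and 338 lower. In all 6282 of 19513 changed at an adjusted p under 0.05 in limma. These probe sets are unnamed here and were not followed further.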

How the results depend on the processing

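The counts of changed genes held under every alternative run, at 7799 to 10752 for all changes and 596 to 697 for at least 2-fold changes. The split of calls was 4277 higher and 4280 lower after centring each array on its median. The number differing between LBH589 and HL13 went from 5173 to 9175 with array weights, which did not converge and gave LBH589 array 2 a weight of 48.3 against 0.212 and 0.184 for arrays 1 and 3. It was 3850 with LBH589 array 2 alone, an alternative added after seeing the data, and 4335 to 5289 with 1 DMSO or LBH589 array left out. With the replicate number as a block, 8220 genes changed, 683 of them at least 2-fold. The correlations of same-numbered deviations of DMSO and LBH589 arrays were -0.26, -0.0053 and -0.17. Deviations of 3 arrays sum to 0 within a group and carry the length trends. These values therefore cannot settle whether the numbers pair the samples. The rank correlation of gene length with the difference of LBH589 array 3 from array 1 was 0.247 with no filter, 0.334 after quantile normalization and 0.411 for protein-coding genes. The cause was not tested.

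No called gene named here changed direction, and 3 lost the call under an alternative (LSG1, MT1M and TXN). Of the uncalled genes named, 5 passed the test under at least 1 alternative (CCT8, MT3, MT4, MX1 and SLC30A1), the last at -0.0912 with array weights (adjusted p 0.0252 in limma). Uncalled genes near 0 changed sign. HDAC2 was at -0.00412 with array weights and -0.00423 with LBH589 array 2 alone, and at -0.0168 to 0.0800 with 1 array left out. HDAC6 was at -0.00165 after centring, -0.000703 with array weights, -0.00334 without the length trend, -0.00187 with LBH589 array 2 alone, and -0.0183 to 0.0313 with 1 array left out. IFI27 was at -0.0141 after quantile normalization, -0.0514 with array weights and -0.0491 with LBH589 array 2 alone, and at -0.0143 to 0.0419 with 1 array left out. SLC30A1 was at 0.0381 after quantile normalization and at -0.101 to 0.0117 with 1 array left out. Of 784 list medians under an alternative 107 moved by more than their spread between arrays. The largest move was 0.573 log2 units. Among 18 lists with an absolute median of at least 0.2, 1 changed sign under an alternative. Without background values, it was not known which dim probe sets lay above background.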

Other observations

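Large gene families, grouped by the start of their symbols after values had been seen, moved with different signs. Of 405 tested protein-coding zinc finger genes named ZNF, 188 rose (46.4%) and 74 fell (18.3%), beside 30% and 28.5% of all protein-coding genes, but the median log2 fold change was only 0.09. Just 4 rose and 3 fell at least 2-fold, with ZNF277 at 1.46 and ZNF521 at -1.60. Genes of the mitochondrial ribosome fell in 51 and rose in 6 of 74, with a median of -0.25 and MRPL15 at -1.04. Of 28 DEAD-box helicase genes 18 fell and 3 rose, with DDX39A at -1.23 and DDX21 at -1.08. All but 1 of the 7 genes of the chaperonin CCT, which folds actin and tubulin, fell, the exception being CCT8 at 0.08, which did not pass the test.

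RAB genes, small GTPases that direct vesicles, rose in 30 and fell in 12 of 60, with RAB39B at 1.21 and RAB31 at 1.20. Lysine demethylase genes rose in 9 and fell in 4 of 16. KDM5B, which removes methyl groups from histone H3 lysine 4, stood at 5.92, 5.92 and 5.98 in DMSO and at 8.26, 8.27 and 8.33 with LBH589. Its change was 2.35, and KDM1B (0.92), KDM7A (0.82) and KDM1A (0.57) rose while KDM2B changed by -0.48. These are counts and values with no test of the families.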
